A study of Arabidopsis thaliana with 30 samples.

Results

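RNA of reporter-negative protoplasts from Arabidopsis thaliana inflorescences was compared with RNA of whole inflorescences that were neither digested nor sorted. The comparison takes the 4 YFP-NEG and the 4 NO-SORT libraries, chosen by their labels, which are 16 of the 30 sequenced samples of the series or 8 of its 15 libraries, because each library was run in 2 lanes. Both groups came from plants with the ap1; cal mutations and the pAP1::AP1:GR transgene, into which pSHP2-GAL4 and pUAS-3xYpet had been crossed. AP1 and CAL are MADS-box factors that specify the floral meristem, AP1:GR is AP1 fused to the hormone-binding glucocorticoid receptor, and Ypet is a yellow fluorescent protein that GAL4 switches on where the SHP2 promoter is active, the medial domain of the gynoecium. The labels give neither age nor stage nor a steroid treatment. YFP-NEG libraries hold protoplasts, cells freed of their walls, that fluorescence-activated sorting placed in the reporter-negative fraction and that were collected in Trizol, whereas NO-SORT inflorescences were frozen in liquid nitrogen. NO-SORT tissue therefore also holds the SHP2-expressing cells that the YFP-NEG fraction leaves out, and the parts of digestion, sorting, collection and missing cells in a difference cannot be told apart. In bulk RNA, fewer cells of a type and less RNA per cell cannot be told apart either. The 3 YFP-POS libraries, the sorted reporter-positive cells, are set beside the YFP-NEG values where they help to read them.

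Wounding of a plant cell opens calcium channels and starts waves of calcium, reactive oxygen and electrical signals, which are followed within minutes by transcription of genes for ERF, WRKY, MYB and C2H2 zinc finger factors and by synthesis of the hormones jasmonate and ethylene. Jasmonate acts by removing JAZ repressors from MYC factors, and the JAZ genes are themselves MYC targets. Enzymes that digest the wall release wall fragments, which surface receptors read as signs of damage, and a protoplast has lost its wall, its neighbours and its osmotic surroundings. Aerial organs are covered by an epidermis whose cells build the cuticle, a layer of cutin and very-long-chain waxes.

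The YFP-NEG libraries held 13422821 to 15774591 counts and the NO-SORT libraries 14941768 to 16692127, over 33602 loci. Pearson correlations of log2 CPM (read counts scaled to library size) were 0.977 to 0.980 within YFP-NEG, 0.966 to 0.988 within NO-SORT and 0.848 to 0.880 between the groups. The labels call the replicates biological without saying how plants were divided among them, so p-values measure the spread between these libraries. Among the NO-SORT libraries, replicate 1 stood apart: it held the highest level of 16 of 16 genes of primary wall synthesis, 16 of 18 epidermal genes, 15 of 16 genes of phenylpropanoid and flavonoid synthesis and 14 of 20 rapid wound factors. NO-SORT replicate 3 held the highest level of 10 of 12 genes of anther and tapetum. Values without these libraries are given beside several of the results that lean on them. SHP2, whose promoter drives the reporter, stood at 1.16, 2.21, 1.51 and 2.44 CPM in YFP-NEG replicates 1 to 4 and at 5.02, 7.25, 8.505 and 4.85 CPM in NO-SORT replicates 1 to 4. It was lower in every YFP-NEG library than in every NO-SORT library (log2 fold change -1.82, SE 0.29, adjusted p = 0.000221), and the YFP-POS libraries held 34.9 to 40.7 CPM; reads of SHP2 may be shared with an overlapping locus. AP1 stood at 173 ± 13.3 CPM in YFP-NEG and 125 ± 31.9 CPM in NO-SORT with overlapping ranges (log2 fold change 0.47, SE 0.15, adjusted p = 0.0206), a call lost without NO-SORT replicate 2 (adjusted p = 0.0591). Counts of AP1 may hold reads of the AP1:GR transgene as well as of the mutant gene, which cannot be told apart here. CAL transcripts were counted at 9.12 ± 1.98 CPM and 5.02 ± 1.09 CPM (log2 fold change 0.86, SE 0.21, adjusted p = 0.00409).

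About as many genes rose as fell, and together they were 51.6% of those tested. Of 18886 genes tested, 4849 were higher in YFP-NEG (25.7%) and 4896 were lower (25.9%) at an adjusted p under 0.05 in edgeR's quasi-likelihood test, with a median log2 fold change of -0.0038. The large changes were mostly increases: among changes of 4-fold or more with an adjusted p under 0.001, called the strict set here, 763 genes were higher (4.04%) and 84 were lower (0.445%). Scaling by library totals alone moved the split to 3663 higher and 6101 lower, with a median of -0.12, so small differences depend on the scaling and are read against it. Levels are CPM after TMM scaling, given as mean ± SD over 4 libraries (3 for YFP-POS) or for replicates 1 to 4 in order, and log2 fold changes are YFP-NEG over NO-SORT unless YFP-POS is named. Between the sorted fractions, 18830 genes were tested and 4592 were higher and 4592 lower in YFP-NEG than in YFP-POS (24.4% each). Both comparisons use the same YFP-NEG libraries, so their values are set side by side and not counted as separate evidence. The gene lists below were chosen with earlier results of these data known, so their counts describe the lists and are not tests.

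The 12 largest rises, among genes with non-overlapping ranges and at least 10 CPM in the higher group, held 5 transcription factors, 3 small heat shock proteins, 2 calcium-binding proteins, a ubiquitin ligase and ZCF37, whose role is not described here. MYB15, a MYB factor of cold and defence responses, stood at 53.7, 78.2, 102 and 60.1 CPM in YFP-NEG and at 0, 0, 0.0575 and 0.0558 CPM in NO-SORT. It was near 0 in every intact sample, with 4332 counts against 2, a ratio of 2563 with a counting interval of 709 to 21166 (log2 fold change 10.97, SE 0.40, adjusted p = 5.66e-10). CML37, a calmodulin-like calcium sensor, stood at 287, 340.3, 357 and 203 CPM in YFP-NEG and at 0.195, 0.271, 0.0575 and 0.0558 CPM in NO-SORT. All 4 YFP-NEG libraries lay far above the NO-SORT ones (log2 fold change 10.92, SE 0.32, adjusted p = 1.6e-10). RRTF1, also called ERF109, an ERF factor of redox and jasmonate responses, stood at 1046, 1223, 1465 and 1083 CPM against 1.63, 0.541, 0.46 and 0.446 CPM. The NO-SORT libraries were low throughout, with replicate 1 the highest of them (log2 fold change 10.64, SE 0.31, adjusted p = 1.76e-10, and 11.25 on the log2 scale without NO-SORT replicate 1). AT1G19210, an integrase-type DNA-binding protein in RefSeq, a name used for factors with an AP2 domain, stood at 463, 489, 452 and 405 CPM against 0.521, 0.162, 0.23 and 0.223 CPM, with no overlap (log2 fold change 10.64, SE 0.21, adjusted p = 1.25e-11). AT1G22810, with the same RefSeq product, had 4064 counts against 2, a ratio of 2404 with a counting interval of 665 to 19857, and AT3G01830, a calcium-binding EF-hand protein, had 3012 counts against 2, a ratio of 1782 with a counting interval of 493 to 14719. The small heat shock proteins HSP17.4, HSP17.6A and ATHSP22.0 stood at 40.7 ± 15.3 CPM, 169 ± 52.4 CPM and 34.1 ± 11.2 CPM in YFP-NEG, and their NO-SORT counts summed to 1, 7 and 1. The single counts were in NO-SORT replicate 3 for HSP17.4 and replicate 4 for ATHSP22.0, and without those libraries the fitted log2 values moved from 10.83 to 12.32 and from 10.58 to 12.06. The remaining 3 genes had no count in any NO-SORT library. Against a floor of 3 counts over the NO-SORT group, ZCF37 was at least 331-fold higher, PUB22, a U-box ubiquitin ligase of immune signalling, at least 267-fold, and NAC061, a NAC factor, at least 246-fold. Of the 763 strictly higher genes, 34 had no count in NO-SORT.

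The 12 largest falls were smaller than the rises and held 2 GDSL-type lipases, 2 acyl-transferases and a fatty acid elongase among them. AT3G61898, an uncharacterized protein, stood at 0, 0.369, 0.252 and 0.074 CPM in YFP-NEG and at 10.9, 16.3, 11.1 and 11.3 CPM in NO-SORT. It was nearly absent from the protoplasts and present in each intact sample (log2 fold change -6.12, SE 0.41, adjusted p = 1.13e-07). KCS2, a 3-ketoacyl-CoA synthase that elongates fatty acids to very long chains, stood at 10.4, 9.36, 10.13 and 9.26 CPM against 68.9, 63.9, 57.9 and 68.5 CPM. Its levels were even within each group and did not overlap between them (log2 fold change -2.73, SE 0.10, adjusted p = 5.89e-10). PRP4, a proline-rich wall protein, stood at 25.6, 34.9, 38.6 and 38.9 CPM against 407, 229.7, 162 and 162 CPM, with NO-SORT replicate 1 far above the other 3 (log2 fold change -2.80, SE 0.27, adjusted p = 3.81e-06, and -2.43 without that library). FH3, a formin that nucleates actin filaments, stood at 2.71, 1.25, 1.76 and 3.04 CPM against 9.45, 29.4, 40.2 and 32.3 CPM, with NO-SORT replicate 1 the lowest of its group (log2 fold change -3.67, SE 0.41, adjusted p = 1.24e-05). The GDSL-type lipases AT2G42990 and AT4G28780 fell by 2.88 and by 2.80 on the log2 scale. The acyl-transferases AT1G03495 and AT5MAT, the latter an anthocyanin malonyltransferase, fell by 2.80 and by 2.58. The others were the MATE transporter AT5G17700 (-3.15), the hydroxyproline-rich glycoprotein AT4G28160 (-4.01), the uncharacterized AT3G23450 (-3.54) and AT3G43690 (-2.90), which RefSeq lists as a pseudogene. Reads of 9 of these 24 genes may be shared with an overlapping locus, namely AT1G22810, HSP17.4, RRTF1, AT1G19210, AT3G01830, AT4G28160, AT2G42990, PRP4 and KCS2; of all tested genes, 32.4% overlap another.

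**Figure D1:**
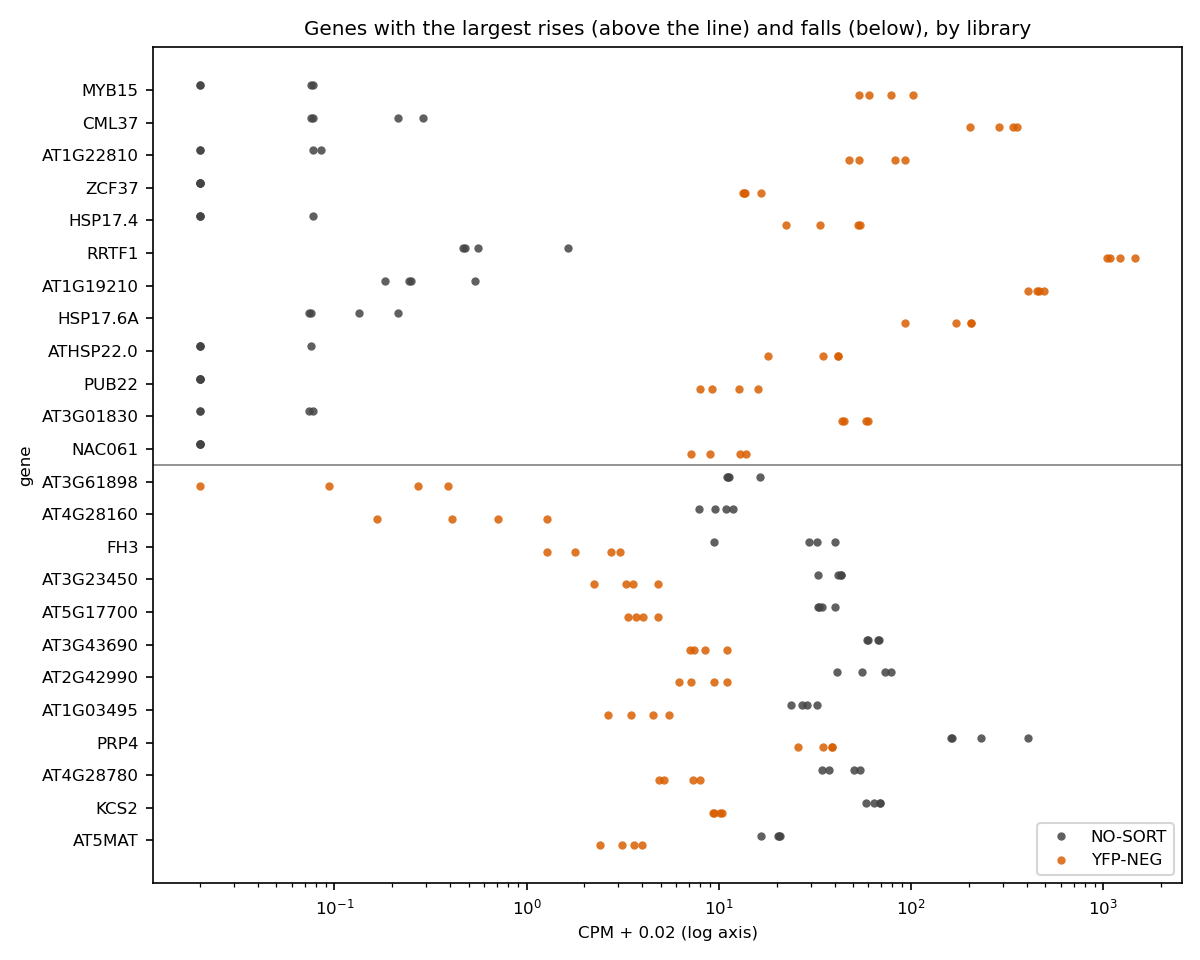
CPM plus 0.02 in each library on a log axis for the 12 largest rises (above the line) and the 12 largest falls (below it), with NO-SORT in grey and YFP-NEG in orange. The groups do not overlap for any of the 24 genes, which the rule for naming them required, and the NO-SORT points of ZCF37, PUB22 and NAC061 lie at the floor because they had 0 counts.

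The promoters of the leading genes are shown because the strictly higher genes differed from all tested genes in the letters their promoters hold. Each window runs from 250 bases before to 50 bases after the annotated gene start, 5′ to 3′ along the gene, in the RefSeq sequence of TAIR10.1, and capitals mark matches to the motifs searched. The windows are chr3:8308959-8309258, plus strand, for MYB15, chr5:16943771-16944070, minus strand, for CML37, chr1:8074988-8075287, minus strand, for AT1G22810, chr3:22922300-22922599, plus strand, for AT3G61898, and chr4:13980066-13980365, plus strand, for AT4G28160. AT1G19210 (chr1:6627639-6627938, minus strand) was added after its values were seen, as the highest-ranked rise with a rapid stress response element.
MYB15: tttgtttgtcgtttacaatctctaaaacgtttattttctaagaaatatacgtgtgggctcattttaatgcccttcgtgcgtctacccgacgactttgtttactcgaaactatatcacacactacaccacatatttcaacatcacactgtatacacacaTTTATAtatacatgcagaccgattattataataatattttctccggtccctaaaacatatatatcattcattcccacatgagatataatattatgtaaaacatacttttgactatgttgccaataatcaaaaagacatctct
CML37: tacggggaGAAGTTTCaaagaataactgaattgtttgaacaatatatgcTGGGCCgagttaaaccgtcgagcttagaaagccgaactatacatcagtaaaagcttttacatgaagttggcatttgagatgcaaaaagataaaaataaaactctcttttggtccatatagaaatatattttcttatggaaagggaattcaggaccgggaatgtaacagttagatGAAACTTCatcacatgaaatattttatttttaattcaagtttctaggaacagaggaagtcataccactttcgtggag
AT1G22810: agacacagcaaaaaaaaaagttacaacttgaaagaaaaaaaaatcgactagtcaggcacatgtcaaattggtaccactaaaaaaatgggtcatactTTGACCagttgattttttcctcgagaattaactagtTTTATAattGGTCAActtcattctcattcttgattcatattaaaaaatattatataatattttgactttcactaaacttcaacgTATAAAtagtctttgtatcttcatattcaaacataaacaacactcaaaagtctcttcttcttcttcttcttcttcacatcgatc
AT1G19210: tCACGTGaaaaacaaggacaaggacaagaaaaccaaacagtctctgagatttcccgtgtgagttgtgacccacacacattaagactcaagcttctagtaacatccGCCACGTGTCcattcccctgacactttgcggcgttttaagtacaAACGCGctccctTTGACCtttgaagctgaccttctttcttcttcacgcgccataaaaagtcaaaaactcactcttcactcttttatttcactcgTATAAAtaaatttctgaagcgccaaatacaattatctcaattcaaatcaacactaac
AT3G61898: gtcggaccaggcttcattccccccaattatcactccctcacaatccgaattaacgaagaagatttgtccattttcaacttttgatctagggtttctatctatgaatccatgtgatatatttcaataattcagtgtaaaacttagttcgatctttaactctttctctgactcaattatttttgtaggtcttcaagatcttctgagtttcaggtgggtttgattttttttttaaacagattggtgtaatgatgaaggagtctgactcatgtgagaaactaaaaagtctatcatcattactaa
AT4G28160: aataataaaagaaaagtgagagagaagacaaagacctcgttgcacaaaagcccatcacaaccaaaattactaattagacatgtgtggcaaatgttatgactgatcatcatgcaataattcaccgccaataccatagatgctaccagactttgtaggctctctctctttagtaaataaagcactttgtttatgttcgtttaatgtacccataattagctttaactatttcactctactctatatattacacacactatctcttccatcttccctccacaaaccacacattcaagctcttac

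CML37 holds a pair of heat shock element cores, GAANNTTC, at -242 and -27 from the gene start, and a site II element, TGGGCC, at -201. AT1G22810 holds a pair of W-box cores, TTGACC or its complement GGTCAA, at -154 and -109, and TATA boxes at -118 and -34. AT1G19210 holds a rapid stress response element, CGCGTT read from the other strand, at -101, a W-box core at -89 and 2 G-boxes, CACGTG, at -249 and -143, the second of which overlaps 2 matches to the abscisic acid response element ACGTGNC. MYB15 shows a TATA box at -92 and none of the stress motifs in the letters searched, and the falling genes AT3G61898 and AT4G28160 show none of the motifs searched. The W-box core was searched as TTGACC only. The related letters TTGACT, which the windows of MYB15, AT1G22810 and, on the other strand, AT1G19210 hold, were therefore neither marked nor counted. Both strands were searched, and a match is a description of the letters only. Over 760 strictly higher genes with a promoter window, 23.7% held the W-box core, which WRKY factors bind, beside 14.1% of all 18750 windows and 8.33% of the 84 strictly lower genes. The heat shock element core, the site of heat shock factors, was in 23.0% of strictly higher, 10.7% of strictly lower and 11.52% of all windows, and in 7 of the 14 windows of the heat shock list. The rapid stress response element, to which calmodulin-binding CAMTA factors are known to bind, was in 12.9%, 1.19% and 3.83% of these sets, and in none of the 20 windows of the rapid wound factors. The G-box, a site of MYC and other bHLH or bZIP factors, was in 13.8%, 4.76% and 9.07%. The site II element, common in promoters of growth and ribosomal genes, was rarer in both strict sets, at 10.4% and 8.33%, than in all windows, at 19.8%. Auxin response elements, TGTCTC or its complement GAGACA, were in 14.2%, 16.7% and 13.6%. Among all 4816 windows of genes called higher at an adjusted p under 0.05, the shares were nearer to the background, at 15.9% for the W-box core and 6.96% for the rapid stress response element.

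**Figure D2:**
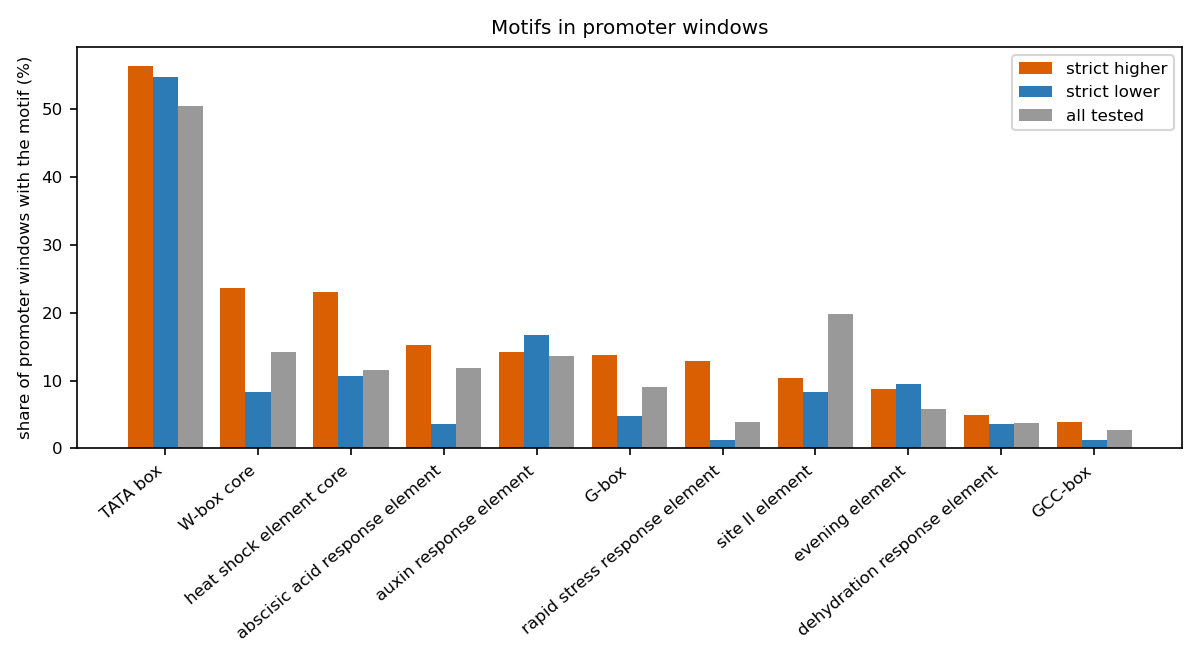
Share of promoter windows (%) that hold each motif on either strand, for the 760 strictly higher genes (orange), the 84 strictly lower genes (blue) and all 18750 genes tested (grey). The orange bars exceed the grey ones for the W-box core (23.7% against 14.1%), the heat shock element core (23.0% against 11.52%) and the rapid stress response element (12.9% against 3.83%), and fall below for the site II element (10.4% against 19.8%).

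Rapid wound transcription factors were the list that rose furthest. Its members were chosen with earlier results of these data known, and RRTF1 and MYB15 were already among the 12 largest rises. Counts of the list are therefore a description. All 20 of its members were called higher, with a median log2 fold change of 6.38, where 25.7% of all genes were called higher and the median was near 0; 19 rose when NO-SORT replicate 1 was left out. WRKY40, an immune and abscisic acid regulator, stood at 348, 379, 491 and 329 CPM in YFP-NEG and 0.912, 0.271, 0.345 and 0.112 CPM in NO-SORT. No NO-SORT library reached 1 CPM (log2 fold change 9.91, SE 0.31, adjusted p = 2.27e-10). ZAT12, a C2H2 zinc finger repressor of stress responses, stood at 1510.2, 1856, 2035 and 1387 CPM against 14.2, 1.46, 4.31 and 3.40 CPM, with NO-SORT replicate 1 the highest intact sample (log2 fold change 8.21, SE 0.55, adjusted p = 1.14e-07, and 9.11 without that library). ORA47, an ERF factor that activates jasmonate synthesis genes, stood at 749, 754, 875 and 703 CPM against 3.91, 0.433, 1.03 and 1.73 CPM (log2 fold change 8.80, SE 0.41, adjusted p = 3.43e-09). These genes were high in each of the 4 protoplast libraries and low in each intact one. WRKY46 (7.68 on the log2 scale), ZAT10 (7.56), ERF11 (6.76), ERF6 (6.49), AZF2 (6.46), WRKY33 (6.30), ERF5 (5.90), ERF13 (5.67), WRKY53 (5.43) and WRKY18 (5.03) rose by more than 5 on the log2 scale. The smallest rises were those of the NAC factors ATAF1 (3.75), NAC019 (3.41) and NAC055 (2.97) and of the ERF factor RAP2.6 (1.26), while ERF104 (4.17) ranged over 1.19 to 25.7 CPM among the intact samples. RRTF1, WRKY40, ORA47, WRKY33, WRKY53 and ATAF1 overlap another locus. Between the sorted fractions 16 members were higher in YFP-NEG and 0 were lower (median 1.05), beside 24.4% of all genes each way. WRKY46 stood at 568 ± 55.0 CPM in YFP-NEG and 123 ± 40.3 CPM in YFP-POS. Of 39 WRKY genes tested, 23 rose and 2 fell, from WRKY40 down to WRKY14 (-0.79) and WRKY19 (-0.68). Among 65 genes whose RefSeq product names an ERF or other AP2 domain, 40 rose and 10 fell. C2H2 zinc finger products had more falls than rises, with 10 of 52 higher and 19 lower (median -0.11), but in the strict set 5 were higher and 0 lower.

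Genes of touch and calcium signalling rose without exception among the 11 listed (median 3.06), where 25.7% of all genes rose and 25.9% fell. XTH22, the touch-induced TCH4 xyloglucan endotransglucosylase, stood at 2313, 2888, 2408 and 2102 CPM in YFP-NEG and at 94.9, 9.36, 57.7 and 15.1 CPM in NO-SORT. The intact samples spread widely below the protoplasts (log2 fold change 5.78, SE 0.62, adjusted p = 9.13e-06, and 6.46 without NO-SORT replicate 1). CML12, the TCH3 calmodulin-like protein, stood at 507 ± 103 CPM against 7.20 ± 4.28 CPM (log2 fold change 6.15, SE 0.34, adjusted p = 1.62e-08), and CAM2, the TCH1 calmodulin, at 168 ± 7.94 CPM against 56.7 ± 7.52 CPM (log2 fold change 1.56, SE 0.11, adjusted p = 2.09e-07). CML38 and CML39 rose by 7.23 and 8.32 on the log2 scale, CML24 by 3.06, CML23 by 2.83, CML42 by 2.603 and CML9 by 1.78. CAMTA3, a calmodulin-binding transcription factor, rose from 55.1 ± 10.8 CPM to 139.8 ± 14.2 CPM (log2 fold change 1.34, SE 0.13, adjusted p = 4.06e-06). Across products, calmodulins and EF-hand proteins had 43 of 90 genes higher and 16 lower. Against YFP-POS 8 of the 11 listed genes were higher in YFP-NEG and 0 were lower (median 1.31), beside 24.4% of all genes each way.

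Jasmonate synthesis rose at most steps. Of 16 genes of jasmonate synthesis and turnover tested, 13 rose and 1 fell (median 2.03), beside 25.7% and 25.9% of all genes. The 13-lipoxygenase LOX3, which starts the pathway, stood at 210.0, 362, 447 and 319 CPM in YFP-NEG and 10.6, 8.498, 6.55 and 6.80 CPM in NO-SORT, and LOX4 at 196 ± 41.1 CPM against 2.29 ± 0.64 CPM. Both were higher in every protoplast library, with replicate 1 the lowest of them for LOX3 (log2 fold change 5.37, SE 0.25, adjusted p = 3.25e-09). The allene oxide synthase AOS rose by 3.65 on the log2 scale, the cyclases AOC3, AOC2 and AOC1 by 5.49, 4.24 and 1.64, the reductase OPR3 by 0.88, the ligase OPCL1 by 4.19 and the conjugating enzyme JAR1 by 0.93. CYP94B3, which oxidises the active hormone jasmonoyl-isoleucine, rose most, with 2605 counts against 14, a ratio of 220.1 with a counting interval of 131 to 403 (log2 fold change 7.73, SE 0.31, adjusted p = 9.13e-10). The acyl-CoA oxidase ACX1 fell (log2 fold change -0.69, SE 0.12, adjusted p = 0.000383). LOX2, the leaf lipoxygenase, stood at 513 ± 226 CPM against 567 ± 50.8 CPM (adjusted p = 0.611; 0.0288 without YFP-NEG replicate 4), and AOC4 at 74.9 ± 4.43 CPM against 71.5 ± 5.17 CPM (adjusted p = 0.583). DAD1, a lipase that releases the precursor in stamens, was below the count filter. The summed level of the list was between 2859 and 2905 CPM in 3 of the protoplast libraries and 1855 CPM in YFP-NEG replicate 1, so replicate 1 stood low within its group and still above the NO-SORT range of 1021 to 1188 CPM. Of 16 jasmonate response genes, 12 rose and 2 fell (median 1.93), and each of the 10 JAZ genes on the list rose. JAZ1, a repressor of MYC factors, stood at 769.6, 903, 1068 and 902 CPM against 28.3, 16.6, 32.5 and 24.7 CPM, with no overlap (log2 fold change 5.16, SE 0.21, adjusted p = 9.7e-10). MYC2, the bHLH factor that JAZ proteins repress, stood at 1063 ± 169 CPM against 68.6 ± 11.7 CPM (log2 fold change 3.95, SE 0.16, adjusted p = 9.9e-10) and overlaps another locus. The vegetative storage protein genes VSP1 and VSP2, late jasmonate markers, fell by 0.85 and by 0.82 on the log2 scale, and VSP2 reached 1373 CPM in NO-SORT replicate 4 against 822 to 887 CPM in the other intact samples. The receptor gene COI1 and the adaptor gene NINJA stood at 39.6 ± 3.50 CPM and 84.4 ± 8.31 CPM, against 37.4 ± 4.16 CPM and 80.2 ± 4.45 CPM (adjusted p = 0.548 and 0.56). Between the sorted fractions the counts in YFP-NEG were 8 higher and 2 lower for synthesis and 10 higher and 0 lower for response, beside 24.4% of all genes each way. With same-numbered libraries of the sorted fractions paired, they were 12 higher and 3 lower for synthesis and 12 higher and 0 lower for response.

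Ethylene genes moved in both directions, with more rises than falls. The synthase gene ACS6 stood at 1236, 1391, 1406 and 1199.7 CPM in YFP-NEG and at 36.0, 7.31, 14.6 and 6.64 CPM in NO-SORT. It was high in all 4 protoplast libraries (log2 fold change 6.35, SE 0.48, adjusted p = 3.75e-07, and 7.10 without NO-SORT replicate 1). ACS2 and ACS8, further synthases, rose by 5.16 and 2.13 on the log2 scale, the oxidase ACO4 by 1.22, the response factor ERF1 by 5.48, the receptor gene ERS1 by 0.54 and EIN3, the central transcription factor, by 0.51. The F-box genes EBF1 and EBF2, whose proteins remove EIN3, fell by 1.68 and by 1.36, and the receptor genes ETR1 and ETR2 fell by 0.47 and by 1.01. EBF1 stood at 49.6 ± 4.45 CPM against 159 ± 25.1 CPM (log2 fold change -1.68, SE 0.12, adjusted p = 2.12e-07), with no overlap between the groups. In all, 8 of 12 tested members rose and 4 fell (median 0.66), beside 25.7% and 25.9% of all genes. ACS7, ACS11 and ACO1 were below the count filter.

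Immune signalling genes rose in part. Of 13 tested genes of pattern-triggered immunity, 9 rose and 2 fell (median 1.43), beside 25.7% and 25.9% of all genes. FRK1, CYP81F2, WRKY29 and PROPEP2 were below the count filter. The kinase gene MPK3 stood at 374, 428, 447 and 399 CPM against 46.1, 25.8, 22.8 and 26.6 CPM, with NO-SORT replicate 1 the highest intact sample (log2 fold change 3.77, SE 0.20, adjusted p = 1.21e-08), while MPK6, its partner in the same cascade, fell by 0.38 on the log2 scale. RBOHD, the oxidase that makes the apoplastic oxidative burst, stood at 255, 385, 373 and 367 CPM against 58.6, 40.3, 44.4 and 39.5 CPM (log2 fold change 2.92, SE 0.16, adjusted p = 2.16e-08), and its lowest protoplast library was replicate 1. PROPEP3, the precursor of a damage peptide, rose by 7.28 and its receptor PEPR1 by 1.60. NHL10, an early immune marker, had 276 counts against 1, a ratio of 327 with a counting interval of 58.1 to 12943 (fitted log2 fold change 7.74, and 9.21 without NO-SORT replicate 2, which held that count). PROPEP1 was the larger of the 2 falls (log2 fold change -0.56, SE 0.19, adjusted p = 0.0239), a call lost when any of NO-SORT replicates 3 and 4 or YFP-NEG replicates 1 and 2 was left out (adjusted p = 0.052 to 0.0909). The receptors of bacterial patterns FLS2 and EFR rose by 0.53 and 1.22. Of 7 salicylic acid and camalexin genes tested, 6 rose and none fell (median 2.37): the regulators SARD1 and CBP60G rose by 4.64 and 3.62, the lipase-like partners PAD4 and EDS1 by 2.59 and 2.10, the transporter EDS5 by 2.37 and the receptor NPR1 by 1.61. ICS1, the synthase they control, stood at 11.1 ± 0.902 CPM against 11.2 ± 0.908 CPM (adjusted p = 0.933). PR1, PR2, PR5, PAD3, CYP71A13, ALD1 and FMO1, further markers of these responses, were below the count filter in these samples. Leucine-rich repeat receptor kinases as a product class had more falls than rises, with 18 of 127 higher and 60 lower (47.2%, beside 25.9% of all genes). In the strict set 2 of them were higher and 0 lower. Of all protein-coding genes with transcripts of 3000 bases or more, 51.6% were lower, and the part of transcript length in this class was not tested.

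Heat shock genes rose in 13 of 14 listed members (median 4.80, the same with HSP21, which had no NO-SORT count, at its bound). The cytosolic chaperone HSP70 stood at 765, 1012, 941 and 578 CPM in YFP-NEG and at 12.1, 14.6, 9.77 and 9.65 CPM in NO-SORT. Every protoplast library lay far above every intact one (log2 fold change 6.16, SE 0.22, adjusted p = 4.91e-10). The disaggregase HSP101 stood at 493 ± 159 CPM against 19.8 ± 3.29 CPM (log2 fold change 4.64, SE 0.23, adjusted p = 6.54e-09), HSP90.1 rose by 3.84 on the log2 scale and the heat shock factors HSFA2, HSFA7A and HSFB2A by 4.93, 4.51 and 3.74. MBF1C, a coactivator of heat responses that overlaps other loci, rose from 12.5 ± 1.82 CPM to 320.0 ± 42.1 CPM. HSFA1A, the constitutive factor, stood at 11.2 ± 2.40 CPM against 9.45 ± 0.294 CPM (adjusted p = 0.24). Of 19 tested genes with an HSP symbol, 13 rose and 1 fell, the latter the chloroplast chaperone HSP93-III (-0.53). Genes of the endoplasmic reticulum stress response had 3 of 11 higher and 3 lower, near the shares of all genes (25.7% and 25.9%). TIN1, a tunicamycin-induced gene, rose by 3.30, the sensor IRE1A and its target BZIP60 by 0.54 and 0.61, whereas the chaperones CNX1 and BIP1 fell by 0.54 and by 0.39. CRT1 fell by 0.30 (adjusted p = 0.023), a call lost without NO-SORT replicate 4 or YFP-NEG replicate 1 or 2 (adjusted p = 0.0666 to 0.0758). Of the heat shock list, 6 members were higher in YFP-NEG than in YFP-POS and 0 were lower (median 0.88), beside 24.4% of all genes each way. With the replicate block, which pairs same-numbered libraries of the sorted fractions, 11 were higher and 0 lower. Of the 19 genes with an HSP symbol, 5 were higher and 4 lower in YFP-NEG than in YFP-POS without the block (median 0.27). These counts were near the 24.4% of all genes called each way, so they say nothing particular of the family.

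Other stress programmes were mixed. OXI1, a kinase activated by reactive oxygen, stood at 71.1, 101, 157 and 62.9 CPM against 0.0651, 0.108, 0 and 0.112 CPM, with 5811 counts against 5, a ratio of 1375 with a counting interval of 589 to 4236. It was near 0 in intact tissue and present in each protoplast library (log2 fold change 10.25, SE 0.48, adjusted p = 3.88e-09). Of 12 oxidative stress genes tested, 7 rose and the catalase CAT2 fell by 0.81 on the log2 scale; the oxidase RBOHF rose by 2.64, the alternative oxidase AOX1A by 1.50 and the ascorbate peroxidase APX1 by 0.57, and CAT3 stood at 796 ± 129 CPM against 735 ± 79.6 CPM (adjusted p = 0.49). Of 18 osmotic and abscisic acid genes, 6 were higher and 6 lower, shares near those of all genes (25.7% higher and 25.9% lower), so the counts say nothing particular of the list. The dehydrins COR47, ERD10 and LTI30 rose by 3.02, 2.83 and 3.16 and NCED3, the rate-limiting enzyme of abscisic acid synthesis, by 1.92. RD22 fell by 1.99, from 349.9 ± 58.0 CPM to 88.0 ± 16.4 CPM, and the phosphatase genes ABI2, HAI1 and HAI2 fell while ABI1 rose by 0.53. KIN2 stood at 753 ± 85.3 CPM against 634 ± 64.7 CPM (adjusted p = 0.0961). Hypoxia genes rose in 9 of 11 (median 1.64), led by HRE2 (3.05), an ERF factor, and HB1 (2.37), a haemoglobin; the stearoyl desaturase SAD6 rose by 1.64, and LBD41 stood at 157 ± 32.7 CPM against 122 ± 66.9 CPM (adjusted p = 0.357). Between the sorted fractions the hypoxia list gave 3 higher and 4 lower in YFP-NEG, beside 24.4% of all genes each way. The counts for 10 sugar starvation genes were 4 higher and 0 lower, where 25.7% of all genes were higher and 25.9% lower. Those that rose were ASN1, the dark-induced asparagine synthetase, by 1.39, DIN10 by 1.31, DIN1 by 1.09 and DIN9 by 1.46. TPS8 stood at 126 ± 38.1 CPM against 92.6 ± 28.8 CPM (adjusted p = 0.119, and 0.0319 without NO-SORT replicate 1). Of 10 tryptophan and indole glucosinolate genes, 4 rose and none fell, and MYB51, a regulator of indole glucosinolates, had 116 counts against 15, a ratio of 9.15 with a counting interval of 5.32 to 16.9. Tau glutathione transferases, detoxifying enzymes, rose in 8 of 14, from GSTU11 (5.57) to GSTU20 (0.50), and GSTU26 fell by 0.76. Wound-induced regeneration factors rose in 7 of 10 tested (median 0.83), with AT1G22190 at 150.3 ± 25.4 CPM against 8.27 ± 1.89 CPM (log2 fold change 4.18, SE 0.18, adjusted p = 1.58e-09) and WIND1, an ERF factor that promotes callus at wounds, at 393 ± 78.5 CPM against 138 ± 8.78 CPM (log2 fold change 1.50, SE 0.14, adjusted p = 1.78e-06); PLT5 fell by 0.48. ERF115, ESR1, LBD16, HSFB1, NAC071 and AT5G61890, further members, were below the count filter. Among hormone response families, 7 of 19 Aux/IAA auxin repressor genes rose and 3 fell, IAA2, IAA1 and IAA19 by 2.65, 2.35 and 2.18 and IAA14 at -0.96, 2 of 5 SAUR genes rose, and none of 6 cytokinin response regulators was called.

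**Figure D3:**
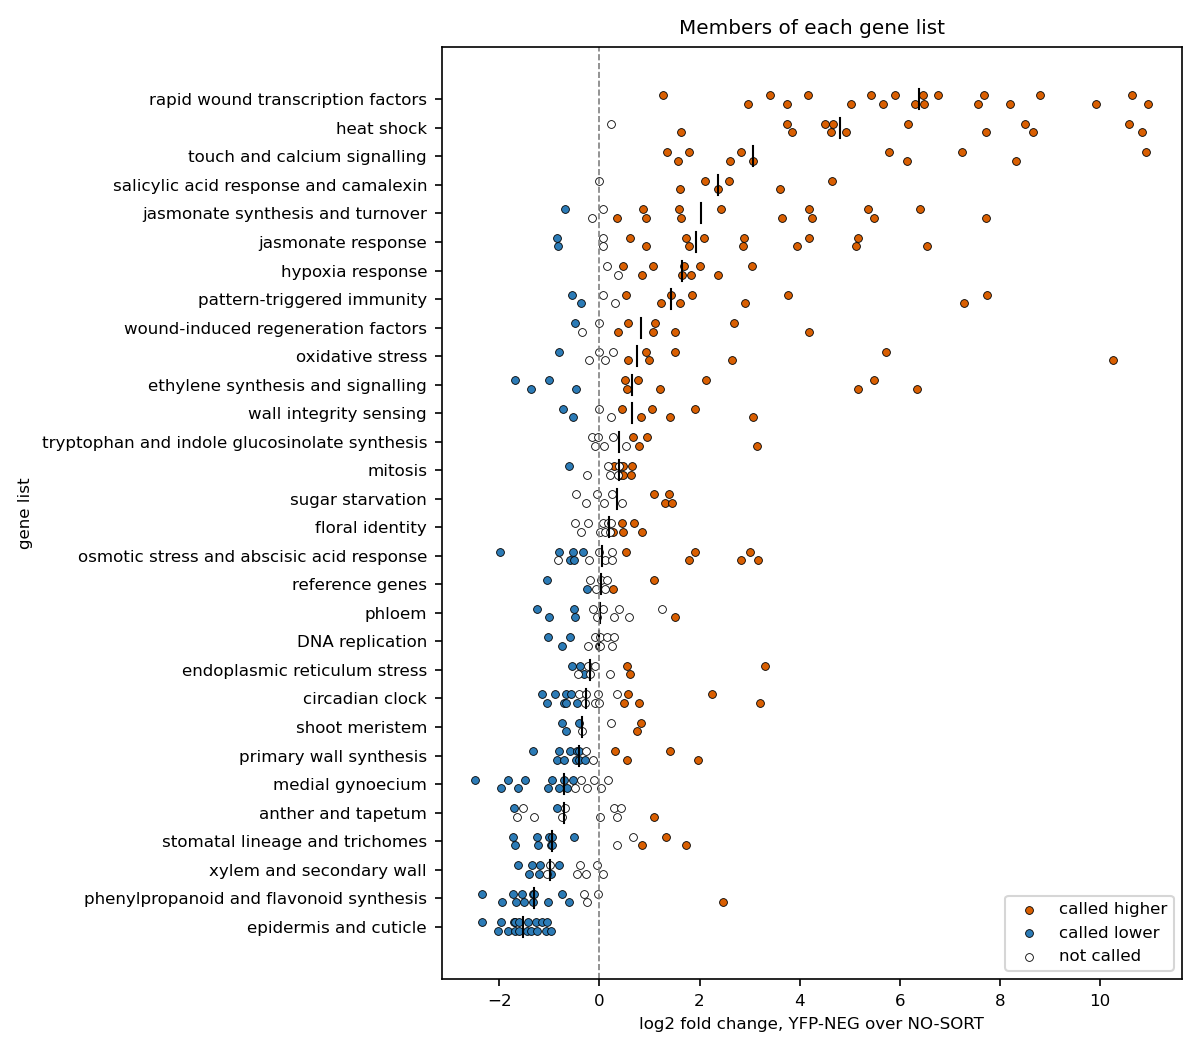
log2 fold change of YFP-NEG over NO-SORT (horizontal axis) for every tested member of the 30 gene lists, with members called higher in orange, called lower in blue and not called in white; black ticks mark list medians and the dashed line the median of all genes. Rapid wound factors (median 6.38), heat shock (4.80) and touch and calcium genes (3.06) lie to the right, and epidermal genes (-1.52) and phenylpropanoid genes (-1.31) to the left.

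Epidermal and cuticle genes fell in 18 of 18 members, where 25.9% of all genes were called lower, with a median log2 fold change of -1.52. PDF1, a protein of the outermost cell layer, stood at 337, 330.2, 309 and 356 CPM in YFP-NEG and at 1636, 1105, 1028 and 1456 CPM in NO-SORT. Every protoplast library held less than every intact one (log2 fold change -1.97, SE 0.15, adjusted p = 2.67e-07). CER1, which makes wax alkanes, stood at 58.9, 81.2, 86.0 and 85.6 CPM against 491, 404, 334 and 350.4 CPM and had the largest fall of the list (log2 fold change -2.34, SE 0.15, adjusted p = 9.43e-08). LTP1, a lipid transfer protein, stood at 364, 398, 548 and 402 CPM against 1189, 1224, 978 and 1227 CPM, with NO-SORT replicate 3 below the other intact samples (log2 fold change -1.44, SE 0.14, adjusted p = 3.36e-06). The homeodomain factors ATML1 and PDF2, which set epidermal identity, fell by 1.44 and by 1.71 on the log2 scale, and the receptor kinase ACR4 fell by 2.02. Among enzymes of cutin and wax, FDH fell by 1.69, DCR by 1.69, LCR by 1.61, GPAT6 by 1.60, BDG1 by 1.36, LACS2 by 1.25, CER6 by 1.83, CER4 by 1.06 and CER3 by 1.04. The transporters CER5 and ABCG11 fell by 1.26 and by 0.96, and SHN1, an ERF activator of cuticle genes, fell by 1.14. The count was 18 with any single library left out, although NO-SORT replicate 1 held the highest level of 16 of the 18. Summed over the list, levels were 1409.8 to 1787 CPM in YFP-NEG, 3976 to 6372 CPM in NO-SORT and 3596 to 4875 CPM in YFP-POS, which are also sorted protoplasts. Against YFP-POS the YFP-NEG cells had 2 higher and 13 lower members, beside 24.4% of all genes each way. CER1 stood at 508 ± 116 CPM in YFP-POS (log2 fold change -2.68, adjusted p = 1.42e-06) and PDF1 at 997 ± 230.3 CPM (log2 fold change -1.55, adjusted p = 1.42e-05), while GPAT6 and SHN1 were higher in YFP-NEG. Related genes outside the list went the same way: of 24 fatty acid hydroxylases and 3-ketoacyl-CoA synthases, 17 fell and 2 rose, and of 63 GDSL lipases and SGNH hydrolases 29 fell and 4 rose; these product words were chosen after the strict sets were seen. The strictly lower set also held CER2, CYP86A7 and LTL1, at 15.1, 7.82 and 105 CPM in YFP-NEG against 62.4, 46.4 and 523 CPM in NO-SORT.

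**Figure D4:**
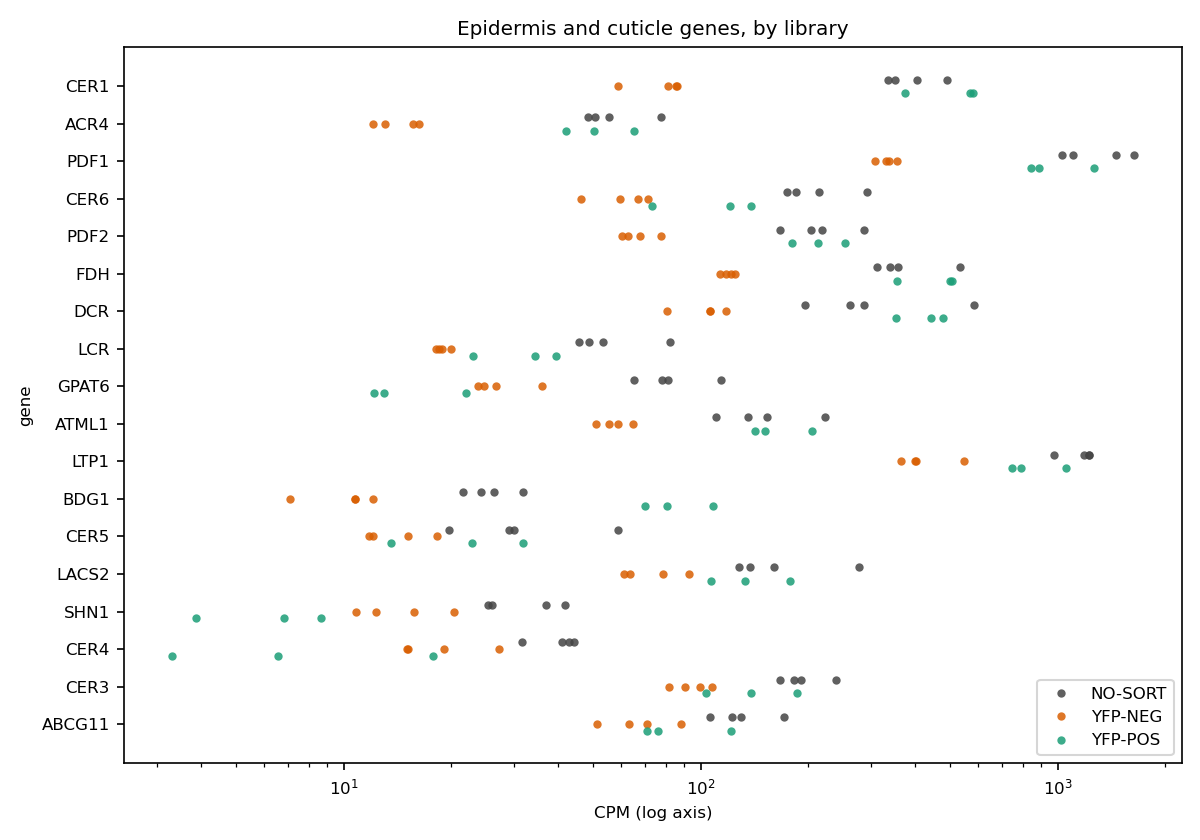
CPM on a log axis of the 18 epidermis and cuticle genes, each point a library of NO-SORT (grey), YFP-NEG (orange) or YFP-POS (green). YFP-NEG lies below NO-SORT for each of the 18 genes, and the summed levels are 1409.8 to 1787 CPM in YFP-NEG, 3976 to 6372 CPM in NO-SORT and 3596 to 4875 CPM in YFP-POS.

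The L1 box, TAAATGCA or TAAATGTA, the site of ATML1 and PDF2, was searched in addition after the epidermal fall was seen. It was in 4 of the 18 windows of the list (22.2%) and in 5.10% of all windows. The window of PDF1 (chr2:17827599-17827898, minus strand, RefSeq TAIR10.1) is shown for its L1 box, in capitals 30 bases after the gene start, beside an auxin response element, GAGACA, at -107.
PDF1: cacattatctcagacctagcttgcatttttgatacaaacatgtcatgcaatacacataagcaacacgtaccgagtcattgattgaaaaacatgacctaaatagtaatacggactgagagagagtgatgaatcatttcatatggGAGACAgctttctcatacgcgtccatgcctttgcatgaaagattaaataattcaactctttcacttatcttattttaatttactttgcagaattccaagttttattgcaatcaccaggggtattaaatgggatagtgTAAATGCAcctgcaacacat

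Phenylpropanoid and flavonoid synthesis fell at 12 of 16 listed enzymes and rose at 1 (median -1.31), and the count without NO-SORT replicate 1, which held the highest level of 15 of them, was 12. Chalcone synthase CHS, the entry to flavonoids, stood at 439, 474, 340.0 and 451 CPM in YFP-NEG and at 1605, 1095, 987 and 1131 CPM in NO-SORT. All protoplast libraries were below all intact ones (log2 fold change -1.50, SE 0.16, adjusted p = 6.56e-06). TT7, the flavonoid 3′-hydroxylase, stood at 38.9, 34.9, 28.1 and 52.1 CPM against 203, 201, 188 and 187 CPM and fell most (log2 fold change -2.35, SE 0.16, adjusted p = 1.08e-07). CHI fell by 1.94 on the log2 scale, F3H by 1.73, FLS1 by 1.30, DFR by 1.32 and LDOX by 1.03, and at the head of the pathway PAL1 fell by 1.55, PAL2 by 0.74, PAL4 by 1.33, 4CL3 by 1.67 and 4CL1 by 0.60. The lignin-branch reductase CCR2 rose by 2.47, and C4H, CCR1 and 4CL2 stood at 346 ± 22.9 CPM, 49.1 ± 6.13 CPM and 14.2 ± 1.26 CPM against 352 ± 74.5 CPM, 58.4 ± 5.80 CPM and 17.59 ± 4.51 CPM (adjusted p = 0.891, 0.0665 and 0.133). Against YFP-POS the same list gave 5 higher and 7 lower in YFP-NEG, beside 24.4% of all genes each way. CHS was at 1610.5 ± 409 CPM in YFP-POS and lower in YFP-NEG (log2 fold change -1.89, adjusted p = 1.11e-05), whereas LDOX was at 12.3 ± 7.10 CPM and higher in YFP-NEG (log2 fold change 2.19, adjusted p = 0.000306). CHS and F3H overlap other loci. Flavonol glucosyltransferases fell with them, UGT78D1 by 1.62 and UGT78D2 by 0.65, while UGT73B3, a stress-induced member of the same family, rose by 7.89. Genes of the stomatal lineage and of trichomes, both epidermal, had 3 of 14 higher and 9 lower (median -0.95), where 25.7% and 25.9% of all genes were. The lineage starter SPCH fell by 1.72, the receptor-like TMM by 1.69 and EPF2 by 1.24, while the guard cell genes KAT1 and MYB60 rose by 1.74 and 1.32 at levels of 0.811 to 2.39 CPM and 1.11 to 1.70 CPM, and MUTE, which ends the divisions, rose by 0.86. TMM stood at 12.7 ± 2.07 CPM in YFP-NEG and 41.1 ± 10.4 CPM in NO-SORT, and SCRM, the bHLH partner gene of SPCH, at 78.3 ± 8.17 CPM and 112 ± 10.96 CPM (log2 fold change -0.52, SE 0.11, adjusted p = 0.00132).

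Wall genes also rose and fell. Of 16 genes of primary wall synthesis, 10 fell and 4 rose (median -0.41). Of all genes, 25.9% fell and 25.7% rose, so the rises were near that share. Without NO-SORT replicate 1, which held the highest level of each of the 16, 8 fell. Among cellulose synthases CESA6 stood at 97.6, 127, 88.4 and 84.0 CPM against 225, 169, 140.0 and 159 CPM (log2 fold change -0.81, SE 0.16, adjusted p = 0.00106), CESA5 and CESA2 fell by 0.58 and by 0.45 on the log2 scale, and CESA3 stood at 246 ± 34.7 CPM against 298 ± 79.98 CPM (adjusted p = 0.182). CESA1 fell by 0.42 (adjusted p = 0.0233), a call lost without YFP-NEG replicate 1 or 3 (adjusted p = 0.0765 and 0.0544). The callose synthase GSL5 stood at 35.5, 41.9, 29.9 and 29.5 CPM against 112, 79.8, 75.2 and 73.9 CPM and had the largest fall (log2 fold change -1.32, SE 0.15, adjusted p = 1.56e-05). The xyloglucan genes XXT1 and CSLC4 rose by 1.98 and 1.40, and the pectin gene QUA2 by 0.55. Sensors and responders of wall damage rose in 6 of 10 and fell in 2: AT4G20830, listed as an oxidase of wall-derived oligogalacturonides, by 3.07, the wall-associated kinases WAK2 and WAK1 by 1.90 and 1.40, the receptor kinase THE1 by 0.84 and AT4G08850 by 1.06. FER, a relative of THE1, stood at 203 ± 13.1 CPM against 173 ± 39.0 CPM (adjusted p = 0.18, and 0.00382 without NO-SORT replicate 1), and RLP44 fell by 0.73. Xyloglucan endotransglucosylases rose in 8 of 15 and fell in 1, with XTH18 at 27.4 ± 5.54 CPM against 0.135 ± 0.167 CPM (log2 fold change 7.63, SE 0.41, adjusted p = 1.29e-08). Alpha-expansins, which loosen walls, fell in 7 of 13 and rose in none, and fasciclin-like arabinogalactan proteins fell in 7 of 14, FLA8 by 1.40. Other arabinogalactan proteins divided evenly, 7 of 21 higher and 7 lower, not far from the shares of all genes, with AGP1 up by 2.02 and AGP31 down at -0.90.

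Most genes that mark the medial gynoecium, where the reporter is active, fell, and 9 of 14 floral identity genes were not called in either direction. Of 17 medial gynoecium genes tested, 11 fell and none rose (median -0.70), beside 25.9% and 25.7% of all genes. Without NO-SORT replicate 1, 10 fell. Against YFP-POS each of the 17 was lower in YFP-NEG (median -2.47), beside 24.4% of all genes, in a list that holds the reporter's own gene. CRC, a YABBY factor of carpels and nectaries, stood at 16.5, 22.7, 12.1 and 19.7 CPM in YFP-NEG and at 87.3, 95.4, 113 and 98.3 CPM in NO-SORT, with no overlap (log2 fold change -2.48, SE 0.17, adjusted p = 1.08e-07), and overlaps another locus. The style and stigma factors HEC2, HEC1 and STY1 fell by 1.96, by 1.62 and by 0.80 on the log2 scale, and SHP1 by 1.49. ALC, a bHLH factor of fruit opening, stood at 87.5 ± 4.16 CPM against 137 ± 12.6 CPM (log2 fold change -0.65, SE 0.097, adjusted p = 0.000135), whereas its relative SPT stood at 35.9 ± 2.24 CPM against 31.8 ± 1.32 CPM (adjusted p = 0.125) and the NGA genes NGA1 to NGA4 had adjusted p-values of 0.0675 to 0.883. Of 14 floral identity genes, 5 rose and none fell (median 0.19), beside the 25.7% and 25.9% of all genes. The rises numbered 2 when NO-SORT replicate 2 was left out and 3 when libraries were scaled by their totals. SEP1, a cofactor of the organ identity factors, rose by 0.68, LFY by 0.45 and SEP3 by 0.28. SEP2 stood at 287 ± 29.8 CPM against 273 ± 24.9 CPM, AP3 and PI, of petals and stamens, at 206 ± 14.4 CPM and 201 ± 20.2 CPM against 183 ± 17.0 CPM and 174 ± 22.7 CPM, and AG, of stamens and carpels, at 52.7 ± 6.20 CPM against 52.4 ± 12.8 CPM; their adjusted p-values were 0.596, 0.181, 0.158 and 0.985. Of 7 shoot meristem genes, the KNOX genes KNAT2 and KNAT6 rose by 0.83 and 0.76, and BP and CLV2 fell by 0.40 and by 0.67. The call of BP was lost with all 15 libraries in the fit (adjusted p = 0.0824). STM stood at 79.8 ± 10.9 CPM against 67.4 ± 6.82 CPM (adjusted p = 0.106, and 0.0227 without YFP-NEG replicate 1). WUS, which maintains stem cells, stood at 1.60 ± 0.325 CPM against 2.69 ± 0.189 CPM (log2 fold change -0.75, SE 0.26, adjusted p = 0.0306), and its call was lost with any of NO-SORT replicates 2 to 4 or YFP-NEG replicates 1, 2 and 4 left out (adjusted p = 0.051 to 0.083).

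Anther and tapetum genes varied widely within the groups. Of 12 tested, TPD1, a signal for tapetal fate, rose by 1.10 on the log2 scale, its receptor gene EMS1 fell by 0.84 and LAP6, a sporopollenin synthase, fell by 1.72. Without NO-SORT replicate 3, which held the highest intact level of LAP6, the log2 fold change of LAP6 was -1.39. MEE48, a tapetal glucanase also called A6, stood at 4.26, 1.55, 7.49 and 22.7 CPM in YFP-NEG and at 0.0651, 7.47, 47.6 and 32.5 CPM in NO-SORT. Both groups held high and low libraries (log2 fold change -1.31, SE 0.92, adjusted p = 0.255; log2 fold change -0.59 without NO-SORT replicate 3 and -2.29 without YFP-NEG replicate 4). Summed over the list, levels were 108 to 194 CPM in YFP-NEG and 149.5 to 323 CPM in NO-SORT, against 218 to 240.1 CPM in YFP-POS. Xylem and secondary wall genes fell in 7 of 14 (median -0.98), beside 25.9% of all genes. The count was 4, near that share, without NO-SORT replicate 1, YFP-NEG replicate 1 or YFP-NEG replicate 2. The wall synthases CESA7 and CESA4 fell by 1.19 and by 1.40, at means of 2.44 and 1.38 CPM in YFP-NEG, and the receptor kinase PXY of the vascular cambium stood at 54.0 ± 7.33 CPM against 95.1 ± 20.5 CPM (log2 fold change -0.82, SE 0.15, adjusted p = 0.000551). LAC4, a laccase, fell by 1.62 (adjusted p = 0.0301), a call lost without NO-SORT replicate 1 (log2 fold change -1.02, adjusted p = 0.125), YFP-NEG replicate 1 (adjusted p = 0.0676) or YFP-NEG replicate 2 (adjusted p = 0.0798). HB-8, a provascular factor, stood at 38.2 ± 2.89 CPM against 46.3 ± 8.01 CPM (adjusted p = 0.0747, and 0.0108 without NO-SORT replicate 3). Of 12 phloem genes, 4 fell and 1 rose, and the share that fell was near the 25.9% of all genes. The sieve element genes CALS7 and SEOR1 fell by 1.24 and by 1.01, and SMXL5 stood at 84.8 ± 9.72 CPM against 118 ± 13.3 CPM (log2 fold change -0.48, SE 0.11, adjusted p = 0.00344). PP2-A1, a phloem lectin, stood at 14.2, 18.8, 89.4 and 22.3 CPM against 9.25, 11.6, 14.4 and 15.3 CPM, and leaving out YFP-NEG replicate 3 moved the log2 value from 1.52 to 0.53. Its call was lost with limma-voom (adjusted p = 0.0654) and with all 15 libraries in the fit (adjusted p = 0.0923).

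Cell cycle genes moved in both directions. Of 13 mitosis genes 7 rose and 1 fell (median 0.39), beside 25.7% and 25.9% of all genes, with the kinase genes CDKB2;2 and CDKB1;1 up by 0.65 and 0.64 on the log2 scale and the activator CDC20.1 down at -0.61. Of 11 DNA replication genes none rose and the helicase subunit genes MCM4, MCM5 and MCM7 fell by 1.02, by 0.74 and by 0.58, while MCM2, MCM3 and MCM6, of the same complex, stood at 71.5 ± 9.56 CPM, 95.3 ± 9.69 CPM and 74.0 ± 11.53 CPM against 83.9 ± 11.1 CPM, 80.5 ± 20.8 CPM and 72.9 ± 13.7 CPM (adjusted p = 0.127, 0.202 and 0.913). TSO2, a ribonucleotide reductase, stood at 149 ± 18.24 CPM against 158 ± 25.8 CPM (adjusted p = 0.602). Without NO-SORT replicate 1, 1 replication gene, MCM3, was called higher and 10 mitosis genes were. Among 20 clock genes, 5 rose and 8 fell, the rises at the share of all genes (25.7% higher) and the falls beside 25.9% of all genes lower. BOA, a component of the evening loop, rose from 9.10 ± 1.48 CPM to 85.05 ± 19.4 CPM (log2 fold change 3.22, SE 0.17, adjusted p = 1.48e-08), and GRP7 and GRP8, clock-controlled RNA-binding proteins, fell by 1.15 and by 0.90, with GRP7 at 271 ± 25.0 CPM against 598 ± 109 CPM and LHY, a morning factor, falling by 0.56. The times of harvest are not given in the labels, and their part was not tested. Of 9 genes often used as references, UBC9 rose from 100.1 ± 9.34 CPM to 213 ± 18.8 CPM (log2 fold change 1.09, SE 0.11, adjusted p = 3.87e-06) and AT1G07940, an elongation factor gene, fell from 308 ± 54.2 CPM to 149 ± 19.4 CPM (log2 fold change -1.05, SE 0.14, adjusted p = 5.43e-05). UBQ10 stood at 1358 ± 221 CPM against 1260.0 ± 44.3 CPM (adjusted p = 0.489), UBC21 at 47.1 ± 3.36 CPM against 46.2 ± 5.68 CPM and PP2AA3 at 78.7 ± 7.02 CPM against 70.8 ± 11.1 CPM. AT4G34270 rose by 0.27, and the count of rises was 1 with NO-SORT replicate 2 left out or with library totals. ACT2 fell by 0.26 (adjusted p = 0.0317), with the call lost when any of NO-SORT replicates 2 and 3 or YFP-NEG replicates 1, 3 and 4 was left out (adjusted p = 0.0604 to 0.0935). Genes of ribosomal proteins as a product class had 103 of 313 higher and 31 lower, with a median of 0.14, similar in size to the shift that library totals bring to the median of all genes.

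The share of genes called in each direction varied with transcript length and RNA class. Among protein-coding genes whose longest RefSeq transcript is under 1000 bases, 25.0% were higher and 15.7% lower of 2283 tested. At 3000 bases or more, 9.44% were higher and 51.6% lower of 2192, with a median log2 fold change of -0.38. The share called lower rose with each length class, and the share called higher fell from 1000 bases up. Strictly higher genes had a median of 2 exons and 1418 bases and were single-exon genes in 41.0%. Strictly lower genes were alike, with a median of 2 exons, 1615 bases and 46.5% single-exon genes. Over all protein-coding genes tested the values were 5 exons, 1757 bases and 14.4%. Of 152 long non-coding RNAs, 8 were higher and 67 lower, of 103 pseudogenes 8 were higher and 42 lower, and of 18 small nucleolar RNAs 15 were lower and none higher. Over all genes tested, 25.7% were higher and 25.9% lower. The precursor transcripts TAS1C and TAS2, sources of trans-acting small RNAs, were among the strictly lower genes at 2.45 and 3.99 CPM in YFP-NEG against 11.1 and 16.0 CPM in NO-SORT. The labels state RNA integrity for the series as a lower limit only and no value per library, so the part of RNA length or quality in these differences was not tested. The share of counts on organelle loci was 1.39% ± 0.299 in YFP-NEG and 1.08% ± 0.143 in NO-SORT (SD, n = 4 each; exact permutation test, 2-sided, p = 0.0857). Mitochondrial loci alone took 0.773% ± 0.219 and 0.514% ± 0.0774 of counts, with all 4 YFP-NEG libraries above the NO-SORT ones (exact permutation p = 0.0286, the smallest that 4 against 4 can give), and chloroplast loci 0.622% ± 0.113 and 0.564% ± 0.0718 (exact permutation p = 0.457).

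**Figure D5:**
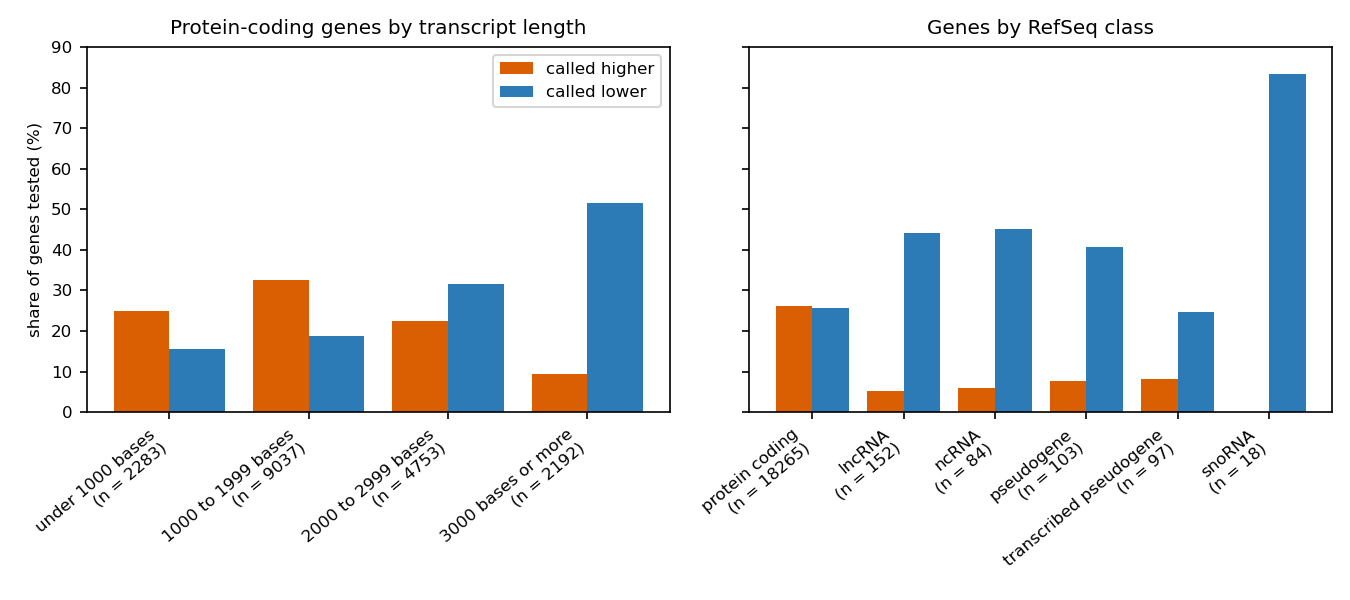
Share of tested genes (%) called higher (orange) or lower (blue) in YFP-NEG than in NO-SORT, for protein-coding genes by length of the longest RefSeq transcript (left) and for RefSeq classes (right), with the number tested under each pair of bars. The share called lower is 15.7% under 1000 bases and 51.6% at 3000 bases or more, and 15 of 18 small nucleolar RNAs are lower.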

How the data were processed

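The authors deposited whole-number counts per locus for each library, in tables joined here by locus, and their values were used as deposited. The submitters' processing notes name TAIR10, FastQC, TopHat2 2.0.10, HTSeq, edgeR, DESeq2 and Cufflinks 2.2.1 without giving their roles, and whether counting used strand is not given in the sources used here. Libraries were strand-specific and read in 125 cycles, per the labels' protocols. Of 33602 loci, 32835 (97.7%) matched RefSeq TAIR10.1, which gave names, products and promoter sequence; 18886 (56.2%) passed edgeR's low-count filter. Counts were scaled by TMM and tested with edgeR 4.0.16 (quasi-likelihood test, Benjamini-Hochberg adjustment over all tested genes, R 4.3.3). Alternatives used limma 3.58.1, DESeq2 1.42.0, other scalings and filters, and left-out libraries. The named genes are SHP2, AP1 and CAL, the 12 largest changes in each direction (adjusted p under 0.001, no overlap, at least 10 CPM), and members of the lists. The 30 lists (432 genes), 16 families and members were chosen with earlier results of these data known. Intervals of count ratios and motif shares are exact at 95% and cover counting error only. On simulated counts of this comparison, 56%, 88%, 96% and 100% of genes changed 1.5-, 2-, 4- and 8-fold were recovered, and 5.03% of calls were unchanged genes. The simulation changed only 50 genes per fold, up and down in equal number, whereas 51.6% of genes were called in the data. These rates therefore need not hold for the calls made here. Same-numbered YFP-NEG and YFP-POS libraries deviated together (r = 0.294, 0.209 and 0.309), which meets the rule for numbers that pair libraries. The values given are nevertheless from the fit without the block, and the replicate block gave 9521 calls against 9184.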

Additional observations from a re-analysis of the deposited data

Results flagged for a closer look

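Among 310 groups of 4 libraries, 28 held a library whose gap to the nearest other exceeded Dixon's 95% critical value; chance gives such a gap in about 1 in 20 groups. No cause was tested for any of them.

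NO-SORT replicate 1 was the highest intact library for GSL5 (112 CPM), MPK3 (46.1 CPM), RRTF1 (1.63 CPM), SAD6 (45.1 CPM), SEP2 (309.6 CPM) and the summed level of pattern-triggered immunity (399.6 CPM), and the lowest for AT3G23450 (33.0 CPM against 41.7 to 43.2 CPM). NO-SORT replicate 2 was the highest for AT3G61898 (16.3 CPM) and NHL10 (0.0541 CPM, a single count). NO-SORT replicate 3 was the highest for LAP6 (32.2 CPM) and HSP17.4 (0.0575 CPM, a single count) and the lowest for AT5MAT (16.5 CPM), HRE2 (0 CPM), LTP1 (978 CPM) and the summed level of shoot meristem genes (247.85 CPM). NO-SORT replicate 4 was the highest for VSP2 (1373 CPM) and ATHSP22.0 (0.0558 CPM, a single count).

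YFP-NEG replicate 1 was the lowest protoplast library for CNX1 (206 CPM), RBOHD (255 CPM) and the summed level of jasmonate synthesis (1855 CPM against 2859 to 2905 CPM), and the highest for P5CS1 (393 CPM). YFP-NEG replicate 2 was the lowest for HRE2 (1.92 CPM) and KNAT2 (26.5 CPM). YFP-NEG replicate 3 was the highest for PP2-A1 (89.4 CPM against 14.2 to 22.3 CPM), LTI30 (13.0 CPM) and ZCF37 (16.6 CPM). YFP-NEG replicate 4 was the lowest for TIN1 (20.9 CPM) and the highest for the summed level of anther and tapetum genes (194 CPM).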

How the results depend on the processing

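The number of genes called, 9745, was 9749 with RLE scaling, 9683 with upper-quartile scaling, 9958 with DESeq2, 9795 with limma-voom, 9752 without a low-count filter, 8480 with all 15 libraries in the fit and 7108 at an adjusted p under 0.01. With library totals the strictly lower genes were 127 in place of 84. With single libraries left out, 8630 to 9643 genes were called (4261 to 4878 higher, 4369 to 4765 lower), 786 to 865 strictly (717 to 779 higher, 65 to 95 lower), and 7910 to 9138 between YFP-NEG and YFP-POS (3869 to 4773 higher, 3968 to 4368 lower). List counts were 19 to 20 for rapid wound factors, 12 to 13 for jasmonate synthesis, 12 for jasmonate response, 11 for touch and calcium, 13 for heat shock, 12 to 14 for phenylpropanoids, 10 to 11 for the medial gynoecium and 18 for the epidermis. The organelle share difference was 0.169 to 0.392 percentage points, with exact permutation p = 0.0286 without YFP-NEG replicate 1 (0.392) and for mitochondrial loci alone (0.259).

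Promoter shares over genes called at an adjusted p under 0.05 moved to 15.9% for the W-box core, 10.3% for the G-box, 6.96% for the rapid stress response element, 2.57% for the GCC-box, 13.7% for the heat shock element core, 6.42% for the evening element and 52.1% for the TATA box among higher genes, to 10.98% for the abscisic acid response element among lower genes, and to 18.75% and 18.5% for the site II element among higher and lower genes; the cause was not tested. Of 540 list counts under the alternatives, 12 moved by over 1.5 times. Single genes were followed for 123 genes only, and others named here, such as WRKY40, LOX3 and SEP1, were not among them. Of 2213 fold changes of the 123 genes, 2161 kept their call or lack of one, 32 lost a call and 20 gained one. None turned direction where either fit called the gene. Some signs turned where neither fit did, as for LOX2, from -0.15 to 0.029 without YFP-NEG replicate 1. The losses include PP2-A1 with limma-voom and P5CS1 and BP with all 15 libraries.

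Replicate numbers did not pair YFP-NEG with NO-SORT: the deviations of same-numbered libraries had r = 0.0125, -0.0398, -0.0164 and 0.122, and only YFP-NEG replicates 1 and 4 correlated best with their own number. The replicate block gave 9167 genes (8993 shared with 9745) and 808 strict ones (795 shared with 847). Between YFP-NEG and YFP-POS, where the numbers pair, the block gave 9521 (8754 shared with 9184) and changed no call of a gene named there. Of the list counts given there, only that of heat shock moved by over 1.5 times. Those of jasmonate synthesis moved from 8 to 12 higher and from 2 to 3 lower. The fit of all 15 libraries includes ALL-SORT replicate 4, which stood apart from its label: it correlated at 0.975 with NO-SORT replicate 1 and at 0.929 to 0.939 with YFP-NEG.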
